A study of Homo sapiens with 12 samples.

Results

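The lysosome genes LAMP1, CTSD, CTSB, PSAP and MCOLN1 and their transcriptional regulator TFEB were followed through 6 lists of m6A peak intervals from the H460 line. An interval was assigned to a gene when it shared at least 1 bp with the gene's hg19 span on the gene's own strand. By this rule 8 of 53502 intervals (0.015%) lay on the 6 genes, whose spans add up to 162 kb. Intervals were present on 5 genes, and MCOLN1 carried none in any list.

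H460 is an established line from a human large cell lung cancer, labelled wild-type. The labels describe 12 MeRIP-seq libraries in 4 groups of 3, which are IP and input libraries after 24 h in 100 nM rapamycin, and IP and input libraries of cells left without treatment. In MeRIP-seq an antibody pulls down RNA fragments bearing N6-methyladenosine (m6A), and the input library is the same RNA before the pull-down. Nothing in the labels states whether replicates were separate cultures, and all come from 1 line.

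Letters A to F stand for the lists, following the accession order of the attached samples. Rapamycin appears in the names of lists D, E and F, with the numbers 4, 5 and 6. The names of A, B and C have con, with the numbers 1, 2 and 3. Each word and number is also that of an IP and input pair in the library titles. The record, however, attaches every list to 1 library of untreated cells, D, F and B to IP libraries and E, A and C to input libraries. A peak list of m6A normally rests on an IP and its input together, so the attachment of A, C and E to inputs leaves unsettled what their intervals were called from, those of CTSB and PSAP in list A included. No list was therefore placed in a treatment arm or read as IP or input, and the effect of rapamycin on these genes was not tested. Lists D, E and F held 4837, 4530 and 4899 intervals, and A, B and C held 12040, 14908 and 12288. The values given are those of single lists, with no replicates. The read depth behind the lists is unknown, so a gene without an interval had no interval in the deposited list, which does not show that its RNA lacked m6A.

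Lysosomes degrade what autophagy delivers to them. TFEB, a basic helix-loop-helix leucine zipper factor, binds the CLEAR element, a short sequence built around an E-box, in the promoters of many lysosomal and autophagy genes. The kinase complex mTORC1, which rapamycin inhibits, phosphorylates TFEB at the lysosomal surface and holds it in the cytosol. In mRNA, m6A is known to be enriched near stop codons and in the last exon. Antibodies against m6A also bind N6,2'-O-dimethyladenosine, a modified base next to the cap, so in such data the marks cannot be told apart at the start of a transcript.

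Promoters are shown for 3 of the genes, LAMP1 and CTSD because each had an interval at its annotated start, and MCOLN1 because it had none. Among the 4 genes with a promoter count, these 3 are also the ones with an E-box. The TFEB windows, which had no E-box, are not shown. The sequences are those of RefSeq (GRCh38.p14), from 250 bases before to 50 bases after the start of the gene, and E-boxes with the letters CACGTG are in capitals. The LAMP1 window is chr13:113296989-113297288 on the plus strand, the CTSD window is chr11:1763878-1764177 on the minus strand, and the MCOLN1 window is chr19:7522374-7522673 on the plus strand. The intervals are in hg19 and were not placed on these windows.
LAMP1: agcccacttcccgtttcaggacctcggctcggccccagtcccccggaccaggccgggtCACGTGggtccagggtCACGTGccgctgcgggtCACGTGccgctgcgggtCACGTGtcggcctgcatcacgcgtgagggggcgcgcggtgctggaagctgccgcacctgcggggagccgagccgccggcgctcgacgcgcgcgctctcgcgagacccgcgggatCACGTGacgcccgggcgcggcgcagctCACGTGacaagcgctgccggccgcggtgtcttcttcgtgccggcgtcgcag
CTSD: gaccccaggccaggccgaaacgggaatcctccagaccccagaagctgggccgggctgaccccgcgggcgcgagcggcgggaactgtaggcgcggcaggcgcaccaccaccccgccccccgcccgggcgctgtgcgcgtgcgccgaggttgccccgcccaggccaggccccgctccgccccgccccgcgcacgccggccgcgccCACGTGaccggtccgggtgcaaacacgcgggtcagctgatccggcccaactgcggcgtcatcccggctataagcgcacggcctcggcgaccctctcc
MCOLN1: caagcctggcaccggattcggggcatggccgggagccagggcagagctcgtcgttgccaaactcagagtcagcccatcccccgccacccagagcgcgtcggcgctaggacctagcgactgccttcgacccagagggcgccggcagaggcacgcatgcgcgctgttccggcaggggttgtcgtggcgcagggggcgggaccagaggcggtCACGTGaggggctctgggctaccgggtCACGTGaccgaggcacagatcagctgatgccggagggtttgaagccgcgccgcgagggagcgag

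LAMP1 had 6 E-boxes in this window, MCOLN1 had 2 and CTSD had 1. The 3 TFEB windows, 1 for each of its RefSeq starts in the table, had none. CACGTG reads the same on both strands, and it occurred in 7.26% of all 35116 promoter windows of this length. At least 5 matches occurred in 1 window of all, that of LAMP1, a count singled out after it had been seen. The longer palindrome TCACGTGA, which contains the E-box and occurred in 0.98% of windows, was present at 2 positions in LAMP1 and at 2 in MCOLN1. It was absent from the CTSD and TFEB windows. PSAP was not in the promoter table. Windows on chromosome 8, which holds CTSB, were left out of the counts per gene, so no count is given for CTSB. The shares over all windows were taken without this exclusion. A match describes these letters only and shows neither binding nor response.

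**Figure D1:**
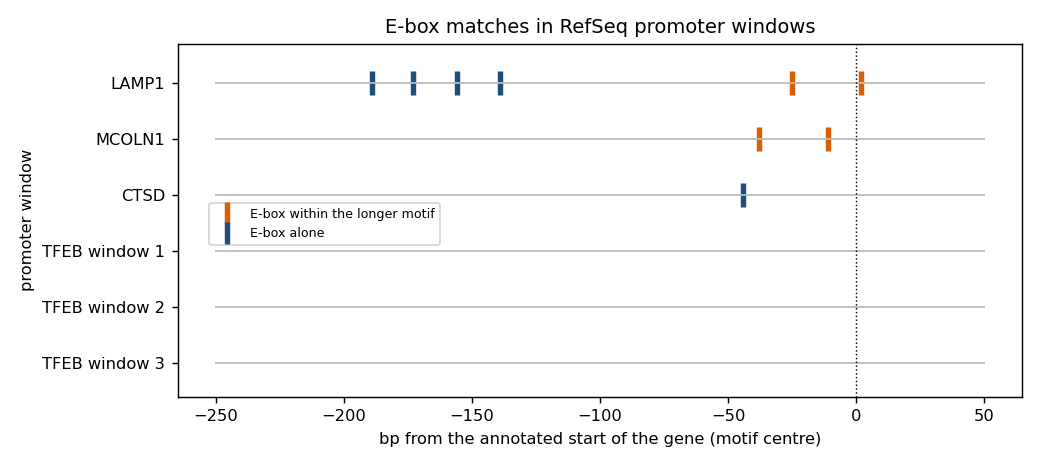
Positions of CACGTG in the RefSeq promoter windows of LAMP1, MCOLN1, CTSD and TFEB, in bp from the annotated start of the gene (dotted line); each bar is 1 match, and its colour shows whether it lies within TCACGTGA. LAMP1 has 6 matches, MCOLN1 has 2, CTSD has 1 and the 3 TFEB windows have none.

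The regulator TFEB had 1 interval, in list B, and none in lists D, E, F, A and C. It lay on chromosome 6 (41651716 to 41652816, minus strand), where it occupied the last 1101 bp of the 52282 bp gene span. Its downstream boundary coincided with the 3′ end of the gene. Its score was 128, which ranks at percentile 21.1 of list B, with 3146 intervals scored lower and 11761 higher. The score is the authors' own value per peak on a scale not given in the sources used here, and a percentile is the rank of an interval among all intervals of its list. Intervals of similar width (919 to 1295 bp) in list B had a median percentile of 64.3 and a lower quartile of 39.6, so the TFEB interval ranked below most of them.

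Of the lysosomal membrane proteins, LAMP1 had 1 interval, again in list B alone. LAMP1 is a heavily glycosylated protein that lines the lysosomal membrane. The interval covered the first 342 bp of the gene, on chromosome 13 (113951469 to 113951810, plus strand), and started at the first base of the span. With a score of 95.94 it stood at percentile 11.6 of list B. No list had an interval at the 3′ end of LAMP1.

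MCOLN1 encodes TRPML1, a lysosomal cation channel whose calcium release is known to activate TFEB. It had 0 intervals in each of the 6 lists on a span of 11400 bp on chromosome 19 (7587496 to 7598895, plus strand). Its surroundings were the most densely covered of the 6 genes. Within 1 Mb on either side, on the same strand, lists D, E and F held 7, 7 and 9 intervals, and A, B and C held 14, 19 and 16. The nearest lay 1.58 kb upstream of the gene in lists B and E and 1.69 kb downstream in lists A and C. MCOLN1 thus lacked intervals in a stretch where every list had some, but its span is short beside that stretch. Over the surroundings of all 6 genes, the lists held from 0.125 (D) to 0.408 (B) intervals per 100 kb. The spans of the 6 genes together held 1.24 (A), 2.47 (B) and 1.24 (F) per 100 kb, and 0 in lists C, D and E. Whether a span of 11400 bp without an interval stands out at any of these densities was not tested.

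CTSD, the aspartic protease cathepsin D, had 2 intervals, both in list F and none in the other lists. The interval at the 3′ end spanned chromosome 11 from 1773982 to 1774900 on the minus strand, 919 bp that end at the last base of the gene. Its score of 677.41 placed it at percentile 88.3, with 572 of the 4899 intervals of list F scored higher. This was the highest rank among the 8 intervals, and it was above the upper quartile (77.5) of list F intervals of similar width. The second interval spanned 1785022 to 1785222, the first 201 bp of the gene, and scored 71.12. It stood at percentile 1.3, with 64 intervals of the list scored lower, close to the lowest score of 70.08. CTSD in list F thus held both the highest-ranked and the lowest-ranked interval of the 6 genes.

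The cysteine protease cathepsin B is encoded by CTSB on the minus strand of chromosome 8. It had 1 interval in list A and 1 in list B, at opposite ends of the gene and without overlap. In list A the interval ran from 11725469 to 11725627 (159 bp), starting 19 bp inside the 5′ end, with a score of 95.61 at percentile 14.1. In list B it ran from 11701437 to 11702731 (1295 bp), 1404 bp from the 3′ end, with a score of 804.25 at percentile 67.2. It was the widest of the 8 and the only one over 50 bp away from the nearer end of its gene. Around CTSB the lists were nearly empty. Within 1 Mb on the same strand list B held 2 intervals and the other 5 lists held 0, so the intervals of CTSB stood isolated.

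PSAP encodes prosaposin, the precursor of the saposins that activate sphingolipid hydrolases. It was the only gene whose intervals overlapped between lists. Both lay at the 5′ end, on the minus strand of chromosome 10. The interval of list A ran from 73610939 to 73611076 (138 bp) and that of list B from 73610939 to 73611082 (144 bp). They shared their inner boundary exactly, and the outer boundary of list A lay 6 bp inside the end of the gene that list B reached. The ranks differed, with a score of 291.77 at percentile 55.6 in list A and a score of 101.82 at percentile 13.5 in list B. No interval was listed over the remaining length of the 35028 bp span.

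**Figure D2:**
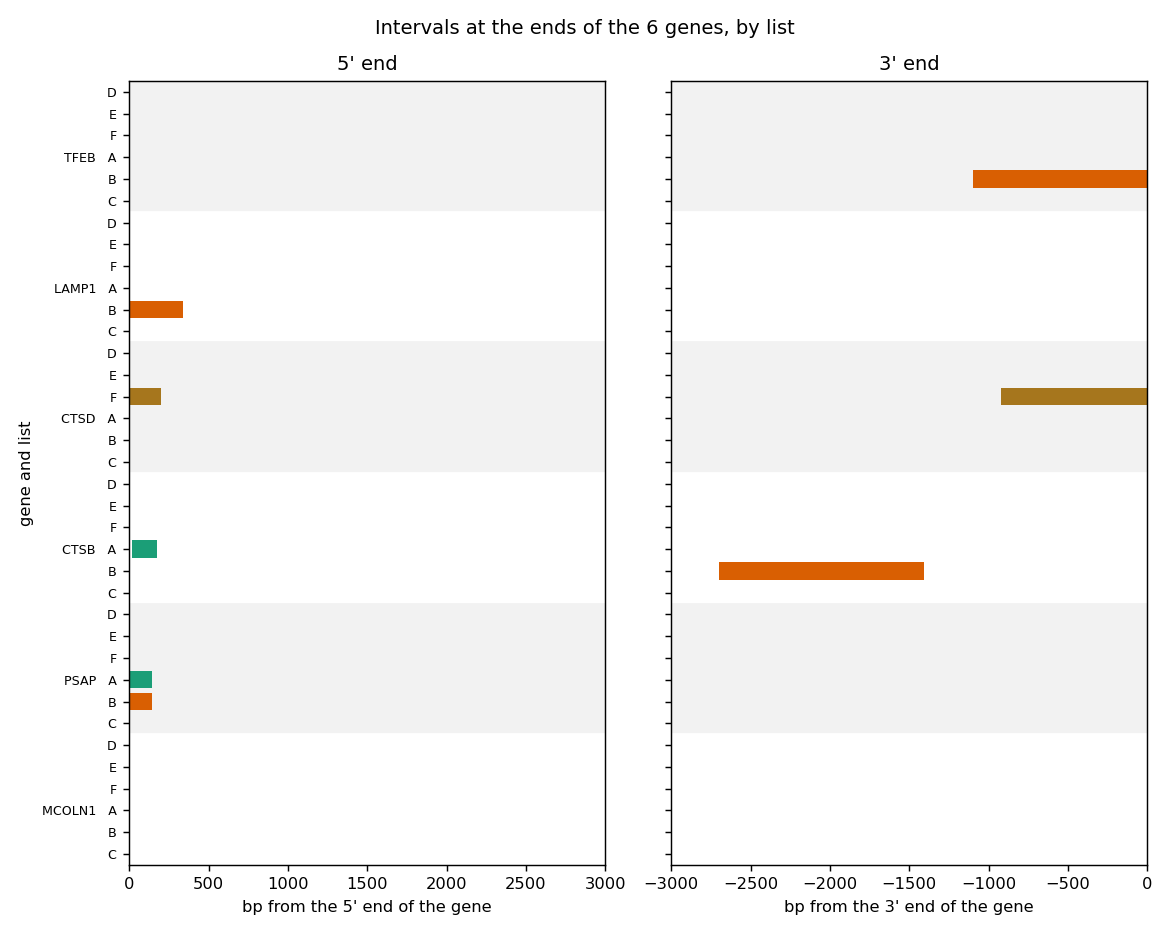
Intervals at the 5′ end (left) and the 3′ end (right) of the 6 genes, with 1 line per list and each bar drawn to its width in bp. The 5 intervals on the left are 138 to 342 bp wide and the 3 on the right are 919 to 1295 bp wide; MCOLN1 has none.

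Across the genes, the 8 intervals fell into a 5′ and a 3′ set. The 5′ set comprised 5 intervals on 4 genes (LAMP1, CTSD, CTSB and PSAP), all starting within 19 bp of the annotated start. The 3′ set comprised 3 intervals on 3 genes (TFEB, CTSD and CTSB). Widths in the sets did not overlap, with 138 to 342 bp (median 159) at the 5′ end and 919 to 1295 bp (median 1101) at the 3′ end. Percentiles overlapped, with 1.3 to 55.6 (median 13.5) in the 5′ set and 21.1 to 88.3 (median 67.2) in the 3′ set. In 5 of the 8 intervals a boundary was identical to an end of the gene. All 8 lay wholly inside their gene, and no interval of any list lay on the opposite strand of these genes.

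Narrow intervals tended to rank lower in each list, so the ranks were set beside those of all intervals of similar width. Those of 138 to 342 bp had a median percentile of 41.1 in list F, 41.0 in A and 34.7 in B. Of the 5′ intervals, 4 were below the lower quartile of their list, which was 19.1 in F, 19.1 in A and 16.4 in B, and that of PSAP in list A was above the median. Of the 3′ intervals, those of CTSD and CTSB ranked above the median of similar widths in their lists (53.6 in F and 64.3 in B) and that of TFEB ranked below it. With 8 intervals no test was made of these differences.

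**Figure D3:**
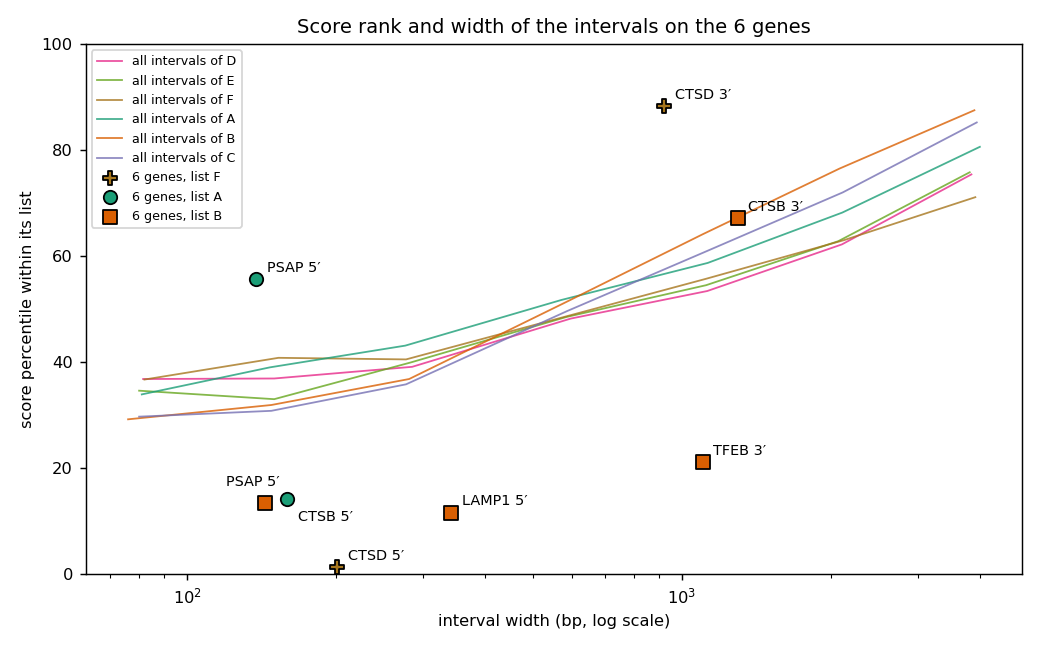
Score percentile within the list against interval width in bp (log axis), with the 8 intervals on the genes as labelled symbols and lines joining the median percentile of all intervals in 7 width classes of each list. The CTSD 3′ interval (88.3) and PSAP in list A (55.6) stand above the lines of their lists. CTSB 3′ (67.2) lies close to its line. CTSD 5′ (1.3), LAMP1 (11.6), TFEB (21.1), CTSB 5′ (14.1) and PSAP in list B (13.5) stand below theirs.

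Joined over lists, the 8 intervals formed 7 regions. None of the 7 was held by all 6 lists, against 8.30% of the 20742 regions of the series. With no interval of lists C, D and E on the genes, none could be. The PSAP region was held by 2 lists, against 19.8% of all regions, and the other 6 were held by 1 list each, against 36.9%. Narrow regions are more often private to a list. Among all regions of 138 to 342 bp, 49.2% were in 1 list and 4.31% in all 6, and among those of 919 to 1295 bp the values were 23.2% and 11.0%. All 3 of the 3′ regions were in 1 list.

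The intervals came from 3 of the 6 lists. List F held 2, both on CTSD, and lists D and E held 0. List B held 4, on TFEB, LAMP1, CTSB and PSAP, list A held 2, on CTSB and PSAP, and list C held 0 although it had more intervals than A. As a share of the list this was 0.0408% in F, 0.0166% in A and 0.0268% in B. Of the 36 combinations of gene and list, 29 had no interval.

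The surroundings of the genes show where a list had intervals at all. Within 1 Mb on either side and on the same strand, the genes' own spans left out, lists D, E and F held 15, 16 and 17 intervals over the 6 genes, and A, B and C held 33, 49 and 41. TFEB had 0 to 6 per list, LAMP1 had 2 to 9, CTSD had 3 to 8, PSAP had 0 to 7, and CTSB and MCOLN1 had the lowest and highest numbers given above. In 7 of the 36 combinations this window was empty, among them CTSB in list A, where the gene itself had its interval. The gap beside a gene could be long, and in list D the nearest same-strand interval upstream of TFEB lay 1010 kb away. On LAMP1, lists D, A, B and C had a neighbour 32.1 to 32.6 kb upstream.

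**Figure D4:**
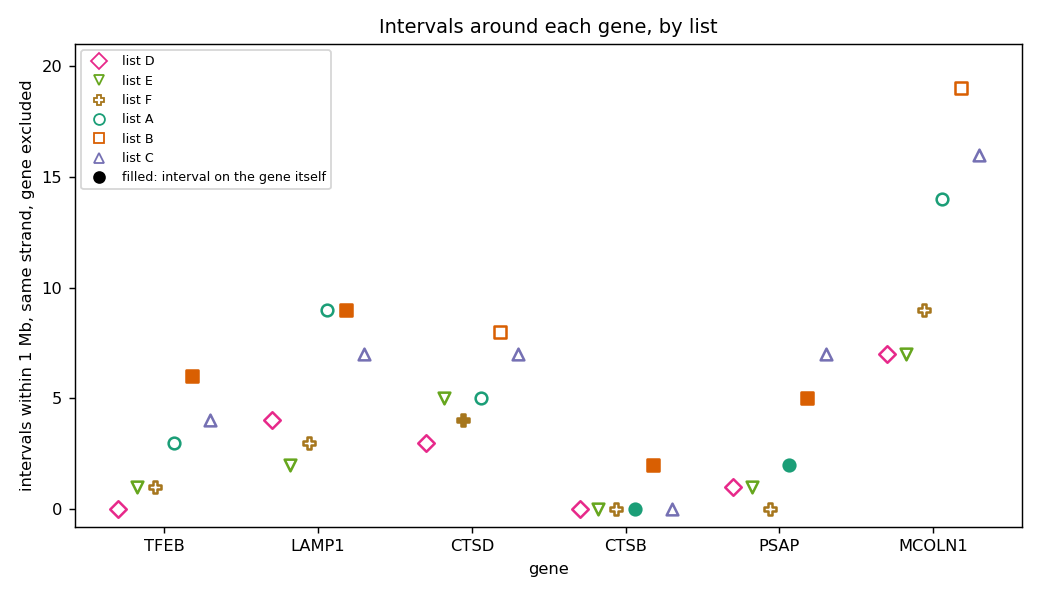
Number of intervals within 1 Mb of each gene on its strand, the gene itself left out, in each list; filled symbols mark lists with an interval on the gene. MCOLN1 has 7 to 19 neighbours per list and no filled symbol, and CTSB has filled symbols at 0 (list A) and 2 (list B).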

How the data were processed

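Input and IP libraries of H460 cells were sequenced after ribosomal RNA removal, per the labels' protocols. The data are 6 peak lists. The submitters' processing notes name the build hg19 and the aligner HISAT2 2.0.4. The authors' deposited score is 1 value per peak. No source used here gives its scale or the caller's settings. The record attaches each list to 1 library, an IP or an input, and does not say which libraries it was called from. Peak names have the default form of MACS, per the file contents.

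The 6 genes, the gene spans and the questions were chosen with earlier results of these data known. Starts were converted to 1-based positions. Overlap needed 1 bp on the same strand, percentiles are mid-ranks within a list, and intervals that overlapped in any lists were merged to regions. All 6 genes are named whatever their values, by a fixed rule. The wider lysosomal gene list foreseen in that rule was not used here, because no hg19 annotation was at hand, and interval sequences were not read. Promoters came from RefSeq and were searched on both strands. Alternatives changed the minimum score, list length, strand, overlap and lists used. Python 3.11.15, pandas 2.3.3, numpy 2.4.6 and matplotlib 3.10.9 were used. Tested on simulated data, the code for overlaps returned 7 of 7 known values, and in 6 of 6 lists its counts equalled those of bedtools 2.31.1.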

Additional observations from a re-analysis of the deposited data

How the results depend on the processing

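As deposited there were 8 intervals on the 6 genes, with a median percentile of 17.6 and a median width of 271.5 bp. Counting either strand, or asking for 50% of the interval inside the gene, gave 8 again. These settings could not differ, because all 8 lay inside their genes and none lay on the opposite strand. With scores at or above the median of all lists pooled (260.435) there were 3, on CTSD in F, CTSB in B and PSAP in A, with a median percentile of 67.2 and a median width of 919 bp. When the best-scored 4530 intervals of each list were used, the number in the shortest list, there was 1, on CTSD in F, at percentile 87.4. Both settings remove low-scored intervals by construction. Leaving out each list in turn, an alternative added after the data were seen for counts and widths, gave 4 to 8 intervals. The 4 came without list B, with a median percentile of 34.9 and no interval on TFEB or LAMP1, and CTSD had none without list F. Median widths were then 180 bp without B and 630.5 bp without A. Lists C, D and E had no interval on the genes, so the number of regions held by all lists was 0 by construction. It could not change under any setting, including intervals covering 50% of a region and each list left out. The PSAP overlap needs both A and B, and was absent at the minimum score and at equal length. No paired analysis was possible because no list was placed in an arm. Unknown depth limits every absence given here.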
